A study of Mus musculus with 6 samples.

Results

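Connexins are the membrane proteins of gap junctions, and few of the mouse connexin genes gave enough reads to be followed in a comparison of lymphoma cells with and without the miR-17~92 microRNA cluster. The genes were chosen by their raw counts: those of the alpha, beta and gamma subfamilies (symbols Gja, Gjb and Gjc) with at least 30 counts summed over all 6 libraries. Of 24885 rows in the count table, 16 belonged to these subfamilies. Of those, 4 met the minimum, 1 had fewer counts and 11 had none. Gjb5 and Gja1 are the 2 members described here. The summed counts that chose the members are a description and carry no test.

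The cells were mouse Eµ-Myc lymphoma cells, in which the Eµ immunoglobulin enhancer drives a Myc transgene in the B lineage. All groups carried Cre-ERT2, a recombinase that is activated by 4-hydroxytamoxifen (4-OHT), and floxed miR-17~92 alleles. The del group (genotype del17-92) had received 250 nM 4-OHT for 4 days and had then been subcloned. The fl group kept its floxed alleles and, as the design text describes it, had been cultured without 4-OHT. Both were grown on irradiated Ink4a-null mouse embryonic fibroblast (MEF) feeder cells for 48 hours before RNA was taken, with 3 libraries in each group. Whether the replicates are separate cultures or subclones is not stated in the labels, and the p-values then measure only how far these samples spread, which may be a technical spread. Deletion, 4-OHT treatment, subcloning and sequencing depth differ between the same groups and cannot be told apart. The design text calls the cells isogenic, but B cell, myeloid and epithelial markers, given with their values below, differed widely between the groups, and whether del and fl are otherwise the same cells was not tested.

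Each library held between 2121796 and 3738720 counts in del and between 6554423 and 9580630 counts in fl. Levels are given as CPM, the depth-scaled count unit, with TMM factors, and each log2 fold change (del minus fl) is given with its standard error. Adjusted p-values are Benjamini-Hochberg values of edgeR's quasi-likelihood test over all 10260 genes tested, and a gene passed at an adjusted p under 0.05. Mir17hg, the primary transcript that holds the cluster, had values of 167, 151 and 206 CPM in del and of 252, 262 and 262 CPM in fl. The reads come from transcript 3' ends, and the sources used here do not give whether the counted end lies inside the deleted part, so this value does not check the labels. Of the B cell markers listed, 17 of 17 tested were higher in del, and the list summed to 1554 ± 112 CPM in del and 95.0 ± 7.08 CPM in fl (SD, n = 3 each). Over all tested genes 3333 of 10260 were called higher in del. Cd22, Ebf1, Blk, Fcrla, Spib, Rag1, Rag2 and Cr2 passed the filter on low counts through the del libraries alone. Their higher calls followed from that filter and are descriptions only. In fl, the recombinase gene Rag1 had no count, and the antigen receptor gene Cd79b averaged 2.12 ± 0.46 CPM, against 171 ± 13.4 CPM in del. The fl libraries therefore carried their lymphoma label with low levels of these markers.

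Connexin subunits assemble into a hemichannel in the plasma membrane, and hemichannels of neighbouring cells dock into channels that pass ions and small metabolites. Gja1 encodes connexin 43, the most widely expressed family member, which is abundant in fibroblasts. Gjb5 encodes a beta connexin known mainly from skin and from the trophoblast of the mouse placenta. In mouse heart muscle, connexin 43 has been described as a target of the miR-17~92 cluster.

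Gjb5 was read in fl and had no count in del, while Gja1 was read in both groups. Gjb5 was at 0 in del and at 3.73 ± 0.55 CPM in fl, and Gja1 averaged 7.21 ± 2.40 CPM in del and 10.3 ± 2.03 CPM in fl and did not pass the test (SD, n = 3 each). Gjb5 reached the count minimum, and the filter on low counts, through the fl libraries alone, so that a difference between the groups followed from how the members were chosen. Its call is therefore a description only. Of all tested genes 32.6% were called lower in del and 65.1% were called in either direction.

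**Figure D1:**
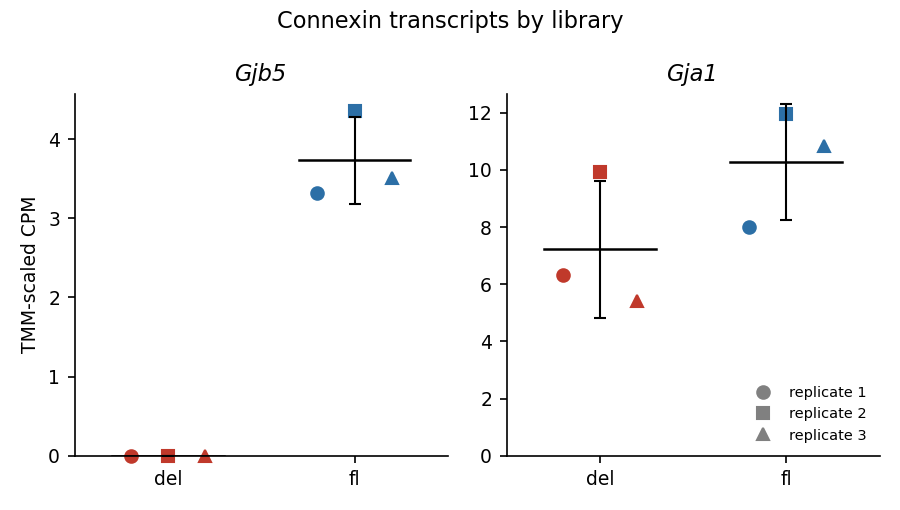
TMM-scaled CPM of Gjb5 and Gja1 (vertical axes, linear, each from 0) in the 3 del and the 3 fl libraries, with 1 point per library, a horizontal line at the group mean and a bar of 1 SD. Gjb5 sits at 0 in every del library, whereas the Gja1 points of del and fl overlap.

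Gjb5 (gene number 14622, chr4:127354809-127358164 in GRCm38) encodes the connexin named above for skin and trophoblast. It had no count in any del library, and 29, 39 and 24 counts in fl replicates 1 to 3. On the CPM scale the fl libraries were at 3.32, 4.36 and 3.51. The fl values lay close together and every one was above every del value, as for 35.7% of all tested genes. A floor of 3 counts over the whole del group is 0.312 CPM, and the fl level of Gjb5 was 12.0-fold above it. The lower limit of the exact 95% interval of the fl to del count ratio was 9.59. The adjusted p of 0.000249 belongs to the fitted log2 fold change of -7.42 and does not test this limit. At the fl level 36.1 counts would have been read over the 3 del libraries. In this bulk RNA, fewer cells that express a gene and less of its RNA per cell cannot be told apart. Counting intervals and floors cover counting error only, since PCR copies are not independent molecules.

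Depth was set equal by thinning each library once to the lowest total. Gjb5 was at 0 in del and had 7, 8 and 7 thinned counts in fl. At that depth it no longer passed the filter on low counts and was not tested. Of the 9137 rows of the table with at least as many fl counts as Gjb5, 89 had at most 1 count in del and 46 had none. Within its last 500 transcript bases Gjb5, like Gja1, shared no run of 30 bases with another gene. On one side of Gjb5 the next gene with a row, CK137956, lies 569428 bases off and had no count.

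Just outside the count minimum was Gja4 (gene number 14612), connexin 37 of blood vessel endothelium. It had no count in del and 5, 8 and 4 counts in fl, 17 in all, at 0.572, 0.894 and 0.586 CPM in fl. Of the members described, Gjb5 lay nearest above it, with 92 counts. Of 4 connexins of the delta and epsilon subfamilies, Gjd3 had no count in del and 5, 6 and 4 counts in fl. Gjd4 had no count in del and 1 count in fl, and the other 2 had none. None of these low genes was tested. No count was read for 13 connexin genes of the 20 with a row.

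The promoter of Gjb5 is shown because this gene was without a count in del. It is from the RefSeq promoter table. The window covers 250 bases before to 50 bases after the start site, chr4:127358115-127358414 on the minus strand of GRCm38.p6. Capitals mark 2 motif matches, the TATA letters TATAAA found on the opposite strand and the letters CCAAT.

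Gjb5 promoter: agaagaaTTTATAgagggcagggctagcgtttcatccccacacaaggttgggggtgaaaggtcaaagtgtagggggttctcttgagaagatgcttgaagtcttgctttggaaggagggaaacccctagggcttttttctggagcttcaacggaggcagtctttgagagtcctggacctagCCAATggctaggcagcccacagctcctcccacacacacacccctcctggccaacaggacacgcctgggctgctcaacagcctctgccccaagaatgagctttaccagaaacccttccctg

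The window had 3 CpG and a GC content of 54.3%, against medians of 7 CpG and 52.7% over the 32851 promoters of the table. The TATA match began 243 bases and the CCAAT match 70 bases before the start site. Of all promoters, 13.6% held TATAAA and 37.4% held CCAAT on either strand. The AP-1 letters TGANTCA, the E-box CACGTG and the GC box GGGCGG were not in this window. These are descriptions of letters, and binding was not measured.

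Of 18 listed epithelial markers, 11 had a count and 3 were tested, Krt18, Epcam and Krt8, each lower in del as Gjb5 was. Like Gjb5, they passed the filter on low counts through the fl libraries alone, so this count is a description only, and the other listed markers were not tested. Among all tested genes 32.6% were called lower in del and 65.1% in either direction. The list summed to between 0.473 and 1.84 CPM in del and between 374 and 412 CPM in fl. Keratin 18 (Krt18) was at 0.605 ± 0.424 CPM in del and 214 ± 14.0 CPM in fl, and the adhesion gene Epcam at 0.175 ± 0.304 CPM in del and 169.6 ± 5.01 CPM in fl (SD, n = 3 each). Krt8 had no count in del and 104 in fl. The epithelial cadherin Cdh1, the splicing regulators Esrp1 and Esrp2, and Krt14, Ovol1 and Cldn7 were at 0 in both groups. Of 14 endoderm and trophoblast markers 1 was tested, Afp, with 3 counts in del and 3396 in fl. The trophoblast genes Cdx2, Elf5, Tfap2c, Prl3d1 and Hand1 were at 0 in both. The part of these markers in the Gjb5 result was not tested.

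Gja1 (gene number 14609, chr10:56377300-56390419) was read in every library. It had 24, 21 and 20 counts in del replicates 1 to 3, and 70, 107 and 74 counts in fl replicates 1 to 3. On the CPM scale these were 6.31, 9.93 and 5.40 in del and 8.01, 12.0 and 10.8 in fl. The groups overlapped, since del replicate 2 lay above fl replicate 1. The log2 fold change was -0.58 ± 0.26 (95% interval -1.17 to 0.02), with an adjusted p of 0.0820. Leaving out del replicate 2 gave -0.81 (adjusted p = 0.0297), leaving out fl replicate 1 gave -0.74 (adjusted p = 0.0317), and upper-quartile scaling gave -0.70 (adjusted p = 0.0416), so whether Gja1 passed depended on single libraries and on the scaling.

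Feeder cells are fibroblasts, in which Gja1 is abundant. Of 31 listed fibroblast markers 29 had a count and 6 were tested, of which 5 were higher and 0 lower in del. Over all tested genes 3333 of 10260 were called higher in del. Fn1, Serpinf1, Acta2 and Sparc passed the filter on low counts through the del libraries, so their higher calls are descriptions only. The list summed to 45.7, 77.6 and 56.4 CPM in del replicates 1 to 3, and to 9.39, 15.0 and 19.8 CPM in fl replicates 1 to 3. Sparc, a matrix-binding glycoprotein gene, was at 10.5 ± 5.37 CPM in del and 1.60 ± 1.95 CPM in fl (SD, n = 3 each; adjusted p = 0.00876). Lum and Fap were at 0 in both groups, and Pdgfra, Postn, Mmp2 and Col6a1 were at 0 in del with 1 or 2 counts in fl. Del replicate 2 was highest in del for both the marker sum and Gja1, and fl replicate 1 was lowest in fl for both. The other extremes differed. In del the marker sum was lowest in replicate 1 (45.7 CPM) and Gja1 in replicate 3 (5.40 CPM). In fl the marker sum was highest in replicate 3 (19.8 CPM) and Gja1 in replicate 2 (12.0 CPM). Between groups the marker sum was higher and mean Gja1 lower in del. The part of feeder RNA in the Gja1 values was not tested.

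**Figure D2:**
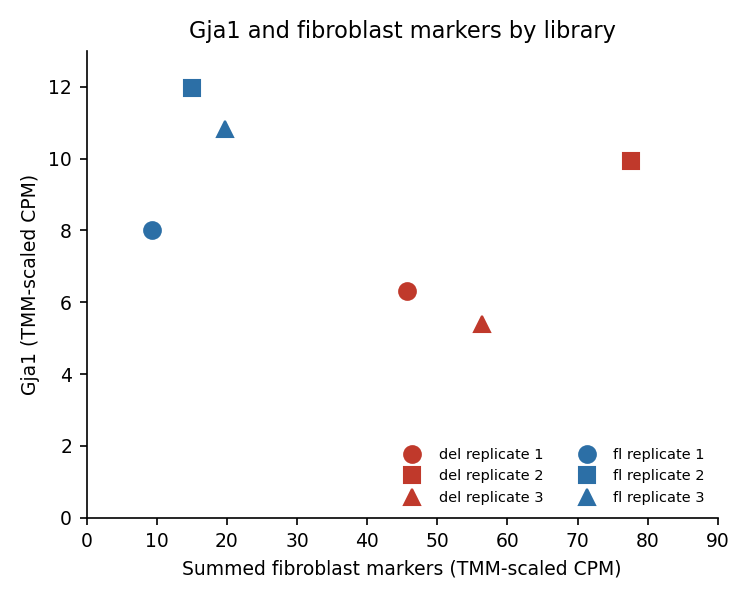
TMM-scaled CPM of Gja1 (vertical axis) against the summed TMM-scaled CPM of the fibroblast markers (horizontal axis), with 1 point per library. The del libraries lie at marker sums of 45.7 to 77.6 CPM and the fl libraries at 9.39 to 19.8 CPM, while their Gja1 values overlap.

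Other marker lists are given for completeness of the cell types that express connexins. Myeloid markers summed to 1504 ± 38.7 CPM in del and 69.6 ± 6.81 CPM in fl, with 9 higher and 2 lower in del of 11 tested. Over all tested genes 3333 of 10260 were called higher and 3343 lower in del. Endothelial markers summed to 22.1 ± 7.13 CPM in del and 13.8 ± 0.756 CPM in fl, with 2 higher and 1 lower of 3 tested, and Kdr, Tek and Tie1 at 0 in both groups. T and NK cell markers had 1 higher and 2 lower of 3 tested. Of the erythroid list only Tfrc was tested, higher in del, of the glial list 1 of 2 tested was lower, and no pluripotency marker passed the filter. Lyz2 and Mrc1 of the myeloid list, and Pecam1 and Vwf of the endothelial list, passed the filter through the del libraries alone. Lck of the T and NK list passed it through the fl libraries alone, so the calls of these genes are descriptions only.

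The neighbours of Gja1 on chromosome 10 are distant. Tbc1d32, a gene of cilia assembly 148332 bases away, was at 10.8 ± 1.34 CPM in del and 4.61 ± 0.88 CPM in fl (SD, n = 3 each), a log2 fold change of 1.23 ± 0.22 (adjusted p = 0.000821). On the other side 4930467K11Rik, 1087964 bases away, had no count.

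The mature microRNAs of the cluster are shown because a match to their seeds in a 3' UTR is the feature by which a target of the deleted cluster would be recognised. Sequences are from the RefSeq table of GRCm38.p6, chromosome 14, plus strand, with the seed (bases 2 to 8) in capitals.

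miR-17-5p: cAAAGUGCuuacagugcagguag
miR-20a-5p: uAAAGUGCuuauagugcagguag
miR-18a-5p: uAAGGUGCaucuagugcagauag
miR-19a-3p: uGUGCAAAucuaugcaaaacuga
miR-19b-3p: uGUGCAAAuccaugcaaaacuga
miR-92a-3p: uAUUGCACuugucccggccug

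The 6 microRNAs carry 4 different seeds, with miR-17-5p and miR-20a-5p sharing one and miR-19a-3p and miR-19b-3p another. The longest annotated 3' UTR of Gja1 and of Gjb5 was searched for the complement of each seed. Gja1, with a UTR of 1720 bases, held 1 match, to the miR-19 seed (capitals), at chr10:56390064-56390092 on the plus strand.

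Gja1 site: caacttggatgTTTGCACtaagattttct

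This heptamer occurred in 15.8% of the 1525 genes whose 3' UTR was within 20% of that length. No seed match was found in the UTR of Gjb5 (725 bases). A match is a description of letters, and repression was not measured. Gja1, which holds the match, did not pass the test, as given above.

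The Gja1 promoter is shown for its match to the AP-1 motif (TGANTCA, in capitals), since AP-1 factors are known regulators of this gene. The window is chr10:56377050-56377349, plus strand, GRCm38.p6.

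Gja1 promoter: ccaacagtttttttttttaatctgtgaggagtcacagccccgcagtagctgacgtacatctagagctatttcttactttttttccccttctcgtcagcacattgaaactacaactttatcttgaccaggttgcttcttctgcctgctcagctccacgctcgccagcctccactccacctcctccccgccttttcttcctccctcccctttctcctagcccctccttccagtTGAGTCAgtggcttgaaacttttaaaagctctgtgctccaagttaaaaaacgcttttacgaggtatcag

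The AP-1 match began 19 bases before the start site, and 7.81% of all promoters in the table held the motif on either strand. The window had 8 CpG and a GC content of 47.7%. It held none of the E-box, GC box, TATA or CCAAT letters searched. As for Gjb5, binding was not measured, and a part of AP-1 factors in the Gja1 values was not tested.

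Of 19 transcription factors known to act on connexin genes, 9 were tested, of which 4 were higher and 5 lower in del (median log2 fold change -0.73, against 0.00 over all tested genes). Of all tested genes 65.1% were called in either direction and 32.6% were called lower in del. Within AP-1, the Fos-family gene Fosl1 was at 3.35 ± 0.63 CPM in del and 19.6 ± 1.39 CPM in fl (log2 fold change -2.51 ± 0.20). Junb was at 73.5 ± 3.94 CPM in del and 205 ± 31.3 CPM in fl (-1.48 ± 0.15), whereas Jun was higher in del, at 192 ± 29.7 CPM against 61.5 ± 12.2 CPM in fl (1.64 ± 0.19). Sp1, a GC box factor, was at 171 ± 37.8 CPM in del and 84.7 ± 5.60 CPM in fl (1.01 ± 0.17; SD, n = 3 each, largest adjusted p of these 4 genes 0.000716). The heart factors Nkx2-5 and Gata4 were not among the tested genes.

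The 5 genes most like Gja1 over the libraries were Mrpl24, Ipo4, Slc39a1, Tbpl1 and Chmp6, at distances of 0.29 to 0.36. Likeness was the Euclidean distance between log2 CPM profiles centred on each gene's mean, over 6042 tested genes with a mean of at least 20 CPM. Each, like Gja1, had its highest del value in replicate 2. The choice by profile leads to this and to fold changes near that of Gja1, so both are descriptions only. Mrpl24, a mitochondrial ribosomal protein gene, was at 102.3 ± 20.6 CPM in del and 160.4 ± 25.5 CPM in fl (log2 fold change -0.66 ± 0.18, adjusted p = 0.0114). Slc39a1, a zinc transporter, was at 18.5 ± 6.53 CPM in del and 28.1 ± 1.64 CPM in fl (-0.65 ± 0.21, adjusted p = 0.0227). Ipo4, a nuclear import receptor, did not pass (-0.44 ± 0.18, adjusted p = 0.0559).

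Proteins that bind, phosphorylate or turn over connexins were mostly read in both groups. Of 32 listed, 26 were tested, 8 higher and 6 lower in del, with a median log2 fold change of 0.13. Over all tested genes 65.1% were called in either direction and 32.6% lower in del. Cttn, the actin regulator cortactin, had 3 counts in del and 1949 in fl, a count ratio of fl to del of 255 (exact 95% interval 87.1 to 1238). Cttn and Cav1 passed the filter on low counts through the fl libraries alone, and Tjp3 through the del libraries alone. The calls of these genes are therefore descriptions only. Prkcd, a protein kinase C that can phosphorylate connexin 43, was at 126 ± 17.6 CPM in del and 31.9 ± 2.42 CPM in fl (1.97 ± 0.15, adjusted p = 6.901e-06). Usp8, a deubiquitinase of connexin 43, was at 288 ± 20.5 CPM in del and 78.1 ± 13.7 CPM in fl (1.88 ± 0.16, adjusted p = 1.326e-05). Cdk1, which phosphorylates connexin 43 at mitosis, was at 183 ± 7.31 CPM in del and 416 ± 16.5 CPM in fl (-1.18 ± 0.13, adjusted p = 5.291e-05). Ctnnb1, the adherens junction gene beta-catenin, did not pass (0.07 ± 0.15).

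Other channel families with large pores were read in both groups. Of 14 listed pannexin, CALHM and LRRC8 genes 7 were tested, 1 higher and 0 lower in del, with a median log2 fold change of 0.13. Among all tested genes 65.1% were called in either direction and 32.6% lower in del. The 1 that passed was Calhm6, at 3.18 ± 1.35 CPM in del and 0.687 ± 0.605 CPM in fl (2.15 ± 0.58, adjusted p = 0.00892). It cleared the filter on low counts through the del libraries alone, so its call is a description only. Without del replicate 1 no gene of the list passed. Without any single fl replicate none passed either, but only 6 genes of the list were then tested. Panx1, the broadly expressed pannexin, was at 10.3 ± 0.80 CPM in del and 8.17 ± 0.86 CPM in fl (adjusted p = 0.134). Lrrc8d and Lrrc8b, subunits of volume-regulated anion channels, had adjusted p-values of 0.126 and 0.194.

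Most of the listed tight junction and desmosome genes had a count, but few passed the filter on low counts. Of 30 tight junction genes 19 had a count and 6 were tested, 1 higher and 4 lower (median log2 fold change -2.41), beside 32.6% of all tested genes lower in del and 65.1% called in either direction. The summed level of the list went the other way, at 134 ± 31.5 CPM in del and 54.9 ± 3.58 CPM in fl (SD, n = 3 each), with most of the del sum from Cgnl1. Genes near 0 in del, such as Cldn9 here and Jup and Pkp3 in the desmosome list, passed the filter through the fl libraries alone, so a lower call followed from the filter and these counts and medians are descriptions only. Cldn9, a claudin, had 1 count in del and 400 in fl, a count ratio of fl to del of 157 (exact 95% interval 28.0 to 6216). F11r, the junctional adhesion molecule A gene, was at 0.513 ± 0.035 CPM in del and 5.20 ± 1.87 CPM in fl, and Pard6b, a polarity gene, at 1.34 ± 0.71 CPM in del and 6.64 ± 0.53 CPM in fl. Cgnl1, the cingulin-like gene, was higher in del, at 122 ± 33.6 CPM against 14.1 ± 1.74 CPM in fl (3.10 ± 0.22, adjusted p = 4.316e-06).

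Of 21 desmosome and adherens junction genes 18 had a count and 4 were tested, 1 higher and 3 lower in del. Among all tested genes 65.1% were called in either direction and 32.6% lower in del. The median of the list was -4.82, or -3.45 with the gene at 0 in del set to its floor of 3 counts. As given above, Jup and Pkp3 passed the filter through the fl libraries alone, so their lower calls are descriptions only. Plakoglobin (Jup) was at 0.353 ± 0.401 CPM in del and 38.5 ± 9.46 CPM in fl (-6.46 ± 0.45), and plakophilin 2 (Pkp2) at 4.91 ± 1.60 CPM in del and 46.1 ± 4.36 CPM in fl (-3.18 ± 0.21). Plakophilin 3 (Pkp3) had no count in del and 101 in fl, where its level was 13.2-fold above the del floor of 3 counts. Afdn, the adherens scaffold afadin, was higher in del at 50.6 ± 6.12 CPM against 22.8 ± 11.5 CPM in fl (1.15 ± 0.31, adjusted p = 0.00974).

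**Figure D3:**
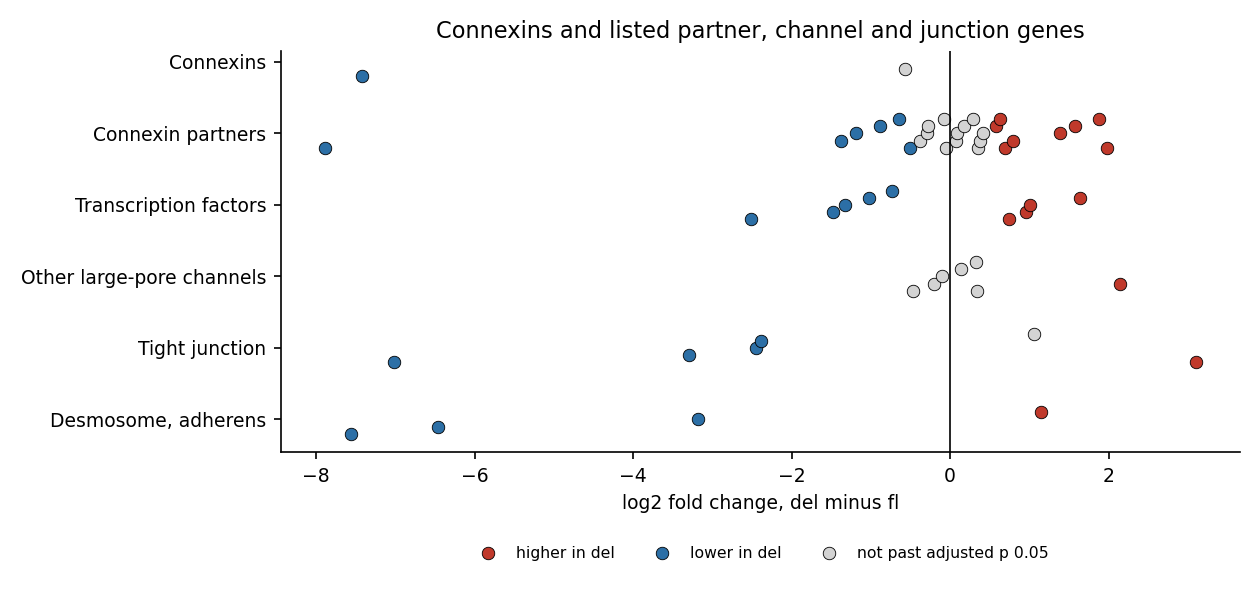
Log2 fold change, del minus fl (horizontal axis), of Gjb5 and Gja1 and of each tested gene of the 5 pathway lists, with 1 point per gene, red for higher in del, blue for lower in del and grey for an adjusted p of 0.05 or more. Gjb5 lies near -7, as do single partner and junction genes, while most connexin partners and other large-pore channels lie between -2 and 2; values of genes without a count in del depend on the prior count of the fit.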

How the data were processed

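RNA 3' ends had been sequenced from 3 del and 3 fl libraries with barcoded oligo-dT primers, per the labels' protocols. The deposited table holds raw counts per gene made by the authors. Per the submitters' processing notes, STAR, HTSeq and mm10 were used, with no version or setting named. Gene symbols came from the RefSeq table of GRCm38.p6, the assembly that mm10 represents, which matched 23969 of 24052 gene numbers and left 83 unmatched.

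The counts were tested with edgeR 4.0.16 under R 4.3.3 (filterByExpr by group, TMM factors, robust quasi-likelihood fit, group as the only term). CPM were computed with the TMM factors. Where a group had no count of a gene, the other group was set against a floor of 3 counts over that group. The test was checked on simulated counts. Alternatives were RLE, upper-quartile and total-count scaling, no filter, a filter of 10 CPM in 3 libraries, thinned libraries, a replicate block, leaving out each library, and DESeq2 1.42.0. Levels of Gjb5 and Gja1 rest on few counts.

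The rule named all members, the 4 tested genes of each of 5 pathway lists with the smallest adjusted p, the 5 genes nearest in profile to the 2 members with most counts, and the nearest gene on each side of each member. Some members and genes that this rule covers are not reported here. Any further gene named was picked with its values in view. The members and lists, among them the fibroblast, epithelial, endoderm and trophoblast, endothelial, B cell, myeloid, T and NK cell, erythroid, glial and pluripotency markers, were chosen with earlier results of these data known. Delta and epsilon connexins formed a further list, of which none was tested.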

Additional observations from a re-analysis of the deposited data

How the results depend on the processing

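Gjb5 entered every fit through its fl counts alone, so its lower value under each alternative is a description and no sign of stability. Its fitted log2 fold change was -7.59 to -7.11 when one library was left out. It was not tested with the 10 CPM filter or in thinned libraries. Of Gjb5 and Gja1, 1 was lower in del as reported, 2 with upper-quartile factors and 1 to 2 with a library left out. With the 10 CPM filter neither gene was tested. In thinned libraries only Gja1 was tested and 0 were lower. Gja1 was below 0 in all 13 alternatives that gave a value and passed in 3 of them. It was -0.70 (adjusted p = 0.0416) with upper-quartile factors, which moved the median of all genes to -0.13, and -0.81 to -0.40 with a library left out; adjusted p ranged from 0.0297 to 0.262, and the cause was not tested. With a minimum of 100 summed counts the members were 2, and Gjb5, with 92 counts, was not among them. With a minimum of 10 they were 5.

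With the 10 CPM filter the transcription factors had 3 lower, the large-pore channels 0 higher and the tight junction list 1 lower. In thinned libraries the partners had 4 higher, the large-pore channels 0 higher and the tight junction list 1 lower. Fewer genes were tested in both settings. Tight junction genes higher in del were 2 with library totals, with no count filter and with DESeq2, and 1 to 2 with a library left out. Large-pore channels higher were 0 to 1 with a library left out, and only 6 of them were tested where that library was an fl one. Over all genes, leaving out a library gave 2971 to 3233 lower and 3076 to 3275 higher.

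Replicate numbers did not pair the samples: deviations from the group means correlated at 0.08, -0.04 and -0.02 between same-numbered libraries. With the replicate block 3215 genes were lower and 3295 higher, Gjb5 was -7.37 (adjusted p = 0.000821), and Gja1 was -0.53 (adjusted p = 0.0803). The depth of del limits what can be said of Gjb5 to the bound given.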
